A study of Mus musculus with 64 samples.

Results

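The genes described here are 50 genes of mitosis: the cyclins and kinase that start it, the kinases, kinesins, centromere and kinetochore proteins that move chromosomes, and the proteins that end it and split the cell. They were picked out by name. Each gene was read from the brightest probe set annotated with its symbol alone, which gave 47 of the 50 among 18820 genes measured; Sgol1 is carried under its present symbol Sgo1, and Ccnb1, Kif20a and Nusap1 are not analysed here. By role the 47 are 3 mitotic entry genes (Ccna2, Ccnb2, Cdk1), 8 kinases (Plk1, Aurka, Aurkb, Nek2, Melk, Ttk, Bub1, Bub1b), 7 chromosomal passenger and centromere genes (Birc5, Cdca8, Incenp, Cenpa, Cenpe, Cenpf, Sgo1) and the 4 of the Ndc80 complex (Ndc80, Nuf2, Spc24, Spc25). The others are 8 kinesins (Kif11, Kif20b, Kif23, Kif2c, Kif4, Kif15, Kif18b, Kif22), 6 spindle genes (Tpx2, Prc1, Dlgap5, Hmmr, Ckap2, Aspm), 4 of chromosome structure (Top2a, Ncapg, Ncaph, Mki67), 3 of cytokinesis (Ect2, Anln, Racgap1) and 4 of anaphase and exit (Cdc20, Pttg1, Espl1, Cdca3). The cells were macrophages grown from the femur marrow of male mice aged 7 to 8 weeks, of strain BALB/c or C57BL/6. On day 6 they were seeded in medium with the macrophage growth factor CSF1 at 10000 U/ml, and on day 7 they were left untreated (0 h) or given 1 stimulus. BALB/c cells received interferon-beta at 10 U/ml, interferon-gamma at 10 U/ml or bacterial lipopolysaccharide (LPS) at 5 ng/ml, while the C57BL/6 cells were given only LPS, in doses of 50, 5 or 0.5 ng/ml. Each of these 6 courses was sampled at 1, 2, 4, 8 and 24 h, which with the 0 h wells of both strains made 32 groups of 2 wells and 64 Affymetrix arrays. The comparisons ask when and how deeply the mitosis genes fell under each stimulus, at each LPS dose and in each strain.

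Mitosis is run by Cdk1, a kinase that is active only with a mitotic cyclin (Ccna2, Ccnb2), and by the Polo and Aurora kinases (Plk1, Aurka, Aurkb). The spindle, built by kinesins and by proteins such as Tpx2, holds chromosomes through the Ndc80 complex at their kinetochores, and a checkpoint (Bub1, Bub1b, Ttk) delays separation until all are held. Cdc20 then switches on the anaphase-promoting complex, securin (Pttg1) is destroyed and separase (Espl1) opens the cohesin ring. The RNA of most of these genes is made mainly late in the cell cycle, so it is high in cultures of dividing cells. Bone marrow macrophages divide as long as CSF1 is present, and LPS and interferons are known to stop them.

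The promoters of late cell cycle genes are known for 2 short elements, the CCAAT box bound by NF-Y and the cell cycle homology region (CHR) bound by the DREAM and MuvB complexes, and promoters of earlier genes more often hold E2F sites. The 250 bases before each annotated start (RefSeq, GRCm38.p6) were available for 41 of the 47 genes, in 43 windows, and were searched on both strands for CCAAT, for the CHR letters TTTGAA or TTCGAA, and for the E2F letters TTCCCGC or TTGGCGC or TTCGCGC or TTGCCGC. Of the 43 windows 32 (74.4%) held a CCAAT box against 33.8% of all 32851 promoter windows, and 20 windows (46.5%) held at least 2 against 10.1%. A CHR match was in 16 windows (37.2%) against 17.1%, and an E2F match was in 5 (11.6%) against 7.89%. In the windows printed here no match overlaps another. Printed 5′ to 3′ along the gene's own strand are the windows of 5 genes on which the results turn: Cdk1 (chr10:69352913-69353162, minus strand), Ccnb2 (chr9:70421555-70421804, minus strand) and Top2a (chr11:99024190-99024439, minus strand), whose falls differ in timing and depth, Cdc20 (chr4:118437344-118437593, minus strand), which differed with dose at 8 h, and Pttg1 (chr11:43425982-43426231, minus strand), the gene that went against the others. Capitals mark every match of the 3 motifs on either strand.
Cdk1: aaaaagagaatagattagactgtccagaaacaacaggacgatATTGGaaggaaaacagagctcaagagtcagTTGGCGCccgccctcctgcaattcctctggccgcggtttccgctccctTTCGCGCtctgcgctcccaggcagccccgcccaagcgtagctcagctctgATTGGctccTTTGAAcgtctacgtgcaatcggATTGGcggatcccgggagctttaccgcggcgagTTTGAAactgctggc
Ccnb2: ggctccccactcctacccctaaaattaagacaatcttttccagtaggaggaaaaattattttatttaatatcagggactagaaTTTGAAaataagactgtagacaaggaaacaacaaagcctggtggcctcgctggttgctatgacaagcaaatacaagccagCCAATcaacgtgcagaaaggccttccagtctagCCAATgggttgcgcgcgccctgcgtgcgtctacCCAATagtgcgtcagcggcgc
Top2a: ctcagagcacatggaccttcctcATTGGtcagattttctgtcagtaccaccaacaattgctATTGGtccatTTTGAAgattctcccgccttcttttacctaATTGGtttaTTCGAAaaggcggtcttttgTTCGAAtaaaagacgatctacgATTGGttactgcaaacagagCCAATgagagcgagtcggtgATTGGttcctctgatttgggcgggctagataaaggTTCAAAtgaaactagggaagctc
Cdc20: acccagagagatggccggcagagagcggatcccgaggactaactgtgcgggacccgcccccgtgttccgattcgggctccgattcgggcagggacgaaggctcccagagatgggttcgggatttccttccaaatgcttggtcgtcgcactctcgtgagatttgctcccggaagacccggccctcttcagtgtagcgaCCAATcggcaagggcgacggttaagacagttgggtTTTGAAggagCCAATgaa
Pttg1: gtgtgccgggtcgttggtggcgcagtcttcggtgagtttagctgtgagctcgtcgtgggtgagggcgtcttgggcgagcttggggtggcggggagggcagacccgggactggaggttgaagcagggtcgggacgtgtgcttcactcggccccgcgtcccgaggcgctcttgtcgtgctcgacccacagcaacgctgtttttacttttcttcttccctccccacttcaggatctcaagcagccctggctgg
The Cdk1 window held 2 CHR matches, 3 CCAAT boxes and 2 E2F matches. The Top2a window held 4 CHR matches and 6 CCAAT boxes, and the Ccnb2 window held 1 and 3. None of these letters was in the Pttg1 window, which says nothing of sites elsewhere or of other letters. Nor was any in the windows of Anln, Birc5, Kif20b, Melk, Ncaph, Ndc80, Nuf2 and Sgo1. An empty window was thus not particular to Pttg1. All of these genes, like Pttg1 itself, were called lower at 24 h of LPS in BALB/c, and what part the letters have in the course of a gene was not tested.

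All values below are log2 of the deposited intensity, on which a difference of 1 is a change of 2-fold, and levels of different genes are not compared with one another. A gene is called lower or higher where limma's adjusted p was under 0.05 and the log2 difference at least 1. SE is that of the fit. Shares of all genes are given for calls alone, not for counts at an unadjusted p or with no minimum change. Correlation between the 2 arrays of a group lay between 0.992 and 0.998. The wells of a group were separate, but nothing states that they came from separate mice, and each p-value therefore measures only how far apart wells lay, which may be technical. A set of 11 arrays was told from the other 53 by probe sets with no gene, and 5 arrays stood apart from their replicate in 12 to 80 genes by more than 1.5. Of these 5, replicate 2 of the C57BL/6 group at 24 h of LPS 5 ng/ml touches the 24 h results: its median over the 47 genes was 6.01 where that of replicate 1 was 5.17. The others touch results at earlier times. They were replicate 2 at 2 h and at 4 h of interferon-gamma, and in C57BL/6 replicate 1 at 1 h of 50 ng/ml and replicate 2 at 1 h of 0.5 ng/ml. At LPS 0.5 ng/ml and 24 h the arrays also differed, at 6.17 for replicate 1 and 5.67 for replicate 2, the latter in the set of 11. The mean of 10 macrophage markers lay between 10.6 and 11.3 in every group, although single markers moved both ways from 0 h to 24 h of LPS in BALB/c, Mrc1 from 9.73 to 5.47 and Cx3cr1 from 9.47 to 6.26, Fcgr1 from 8.91 to 10.94 and Cd14 from 11.40 to 12.41. Of 7 lymphocyte markers 5 (Cd3g, Cd79a, Ms4a1, Ncr1 and Klrb1c) were under the dim level of 4.19, the 40th percentile of all values, in every group. The mean of 12 granulocyte and progenitor markers ran from 4.28, in BALB/c cells at 24 h of LPS, to 5.49, with the progenitor marker Cd34 going from 8.01 at 0 h to 4.11 there. The mean of 8 fibroblast and endothelial markers was highest in that same group, at 5.39, and lowest at 4.35. There Dcn (3.63 at 0 h, 7.75 at 24 h of LPS), Pdgfrb (5.92 and 7.52) and Pecam1 (4.23 and 5.80) were higher than at 0 h and the other 5 were lower, by at most the step of Cdh5 from 4.64 to 4.26. That of 3 erythroid markers lay between 5.03 and 5.87. What part such cells have in the results was not tested. Arrays of whole wells cannot tell fewer dividing cells from less RNA per cell.

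Few mitosis genes were called before 8 h, and by 24 h they had fallen by a little under the interferons and by far more under LPS. In untreated cells the median of the 47 genes was 9.33 and 9.31 on the arrays of BALB/c and 8.89 and 8.91 on those of C57BL/6. At 24 h of LPS 5 ng/ml in BALB/c it was 5.27 and 5.24, and at 24 h of LPS 50 ng/ml in C57BL/6 it was 5.05 and 5.10. Both interferons left it above every array of 24 h LPS, at 7.90 and 8.15 for interferon-beta and at 8.26 and 8.34 for interferon-gamma. No gene of the 47 was called lower at 1 or 2 h in any course. Of all genes, 0.00531% were called lower at 1 h and 0.112% at 2 h of interferon-beta, 0.0372% and 0.106% of interferon-gamma, and 0.122% and 0.308% of LPS in BALB/c. In C57BL/6 these shares were 0.191% and 0.675% at 50 ng/ml, 0.584% and 0.744% at 5 ng/ml, and 0.388% and 0.537% at 0.5 ng/ml. At an unadjusted p under 0.05, at most 6 were lower in a course at those times, under LPS at 2 h in BALB/c. None was called higher either, but 11 were higher at an unadjusted p under 0.05 at 1 h of 0.5 ng/ml and 11 at 2 h of 5 ng/ml in C57BL/6. The median change of the 47 genes was 0.20 at both, against -0.02 and -0.04 over all genes. The shares of all genes higher by that p were not counted, and both courses are set against the same 2 arrays at 0 h. In both groups replicate 2 is in the set of 11 and had the higher median over the 47 genes. It was 9.26 against 9.03 at 1 h of 0.5 ng/ml, where replicate 2 also stands apart, and 9.26 against 9.22 at 2 h of 5 ng/ml. What part that set has in these counts was not tested.

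**Figure D1:**
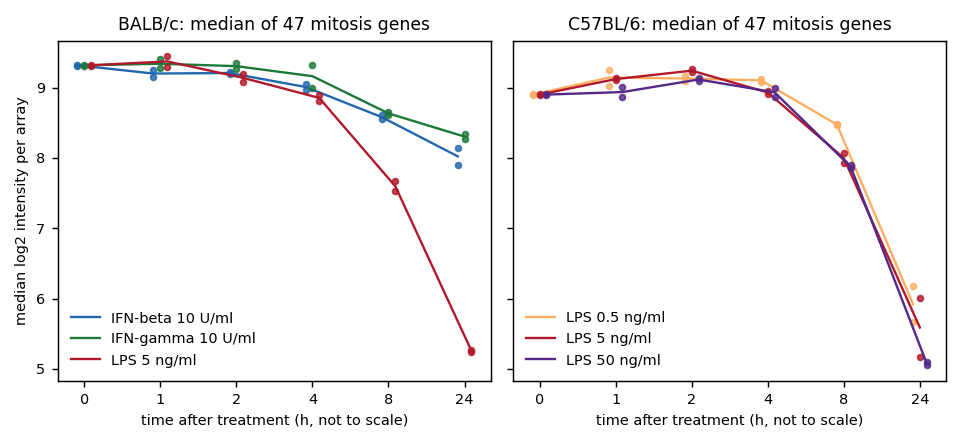
Median log2 intensity of the 47 mitosis genes on each array (points) and its mean over the 2 arrays (lines), against hours after treatment (axis not to scale), in BALB/c (left) and C57BL/6 (right). The courses run close together to 4 h, and at 24 h the LPS arrays lie between 5.05 and 6.17 while the interferon arrays lie between 7.90 and 8.34.

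At 4 h 3 genes were called lower, all under interferon-beta, although more genes were below 0 h under LPS. Separase (Espl1) was at 8.58 on both 0 h arrays and at 7.00 and 6.86 at 4 h, a fall of 1.65 ± 0.24 (SE, adjusted p = 7.61e-07). The mitotic kinesin Kif18b fell by 1.27 and the anaphase activator Cdc20 by 1.17, where 1.98% of all genes were called lower. Cdc20 read 10.18 and 10.10 at 0 h and 9.01 and 8.93 at 4 h. Both 4 h arrays of interferon-beta are in the set of 11; with that set as a covariate Espl1 was still called (-1.08 ± 0.14, SE, adjusted p = 2.08e-07), and Kif18b (-0.93) and Cdc20 (-0.84) were not. The same 3 genes had the lowest values at 4 h of interferon-gamma, Espl1 at -0.75, Kif18b at -0.72 and Cdc20 at -0.55, but none was called (13 were lower at an unadjusted p under 0.05, and 0.51% of all genes were called lower). At 4 h of LPS in BALB/c the median change was -0.55, with 46 of the 47 below 0 h and none called lower (30 at an unadjusted p under 0.05), where 2.49% of all genes were. With no minimum change 26 genes were lower under LPS at 4 h in BALB/c, 16 under interferon-beta and 5 under interferon-gamma. At 4 h of interferon-gamma replicate 1 is in the set of 11 and replicate 2 stands apart, while neither LPS array at 4 h in BALB/c is in that set. What part these arrays have in the order of these counts was not tested. In C57BL/6 none was called lower at 4 h either, where 1.18%, 1.5% and 0.414% of all genes were called lower for 50, 5 and 0.5 ng/ml. There 10, 11 and 1 of the 47 were lower at an unadjusted p under 0.05. The shares of all genes at an unadjusted p, or with no minimum change, were not counted for any of these courses.

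LPS at 5 ng/ml in BALB/c had called lower 44 of the 47 genes by 8 h, where 7.41% of all genes were called lower, and all 47 by 24 h, where 5.54% were. The median change was -1.95 at 8 h and -3.78 at 24 h, against -0.04 and -0.03 over all genes. At 8 h the lowest were Aspm (-2.89), Kif23 (-2.71) and Kif18b (-2.69), and the 3 not called were Tpx2 (-0.94), Mki67 (-0.90) and Pttg1 (0.13). At 24 h the lowest were Ccna2 (-6.30), Plk1 (-6.06) and Ccnb2 (-5.73), and the smallest falls were those of Incenp (-1.40), Pttg1 (-1.83) and Mki67 (-2.12). From 8 to 24 h 43 genes were called lower, where 2.78% of all genes fell between these times. Incenp (-0.12), Ncaph (-0.51), Kif22 (-0.80) and Melk (-0.81) did not pass between these times, and the steps of Ccnb2 (-4.71), Plk1 (-4.17) and Ccna2 (-4.10) were the lowest.

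**Figure D2:**
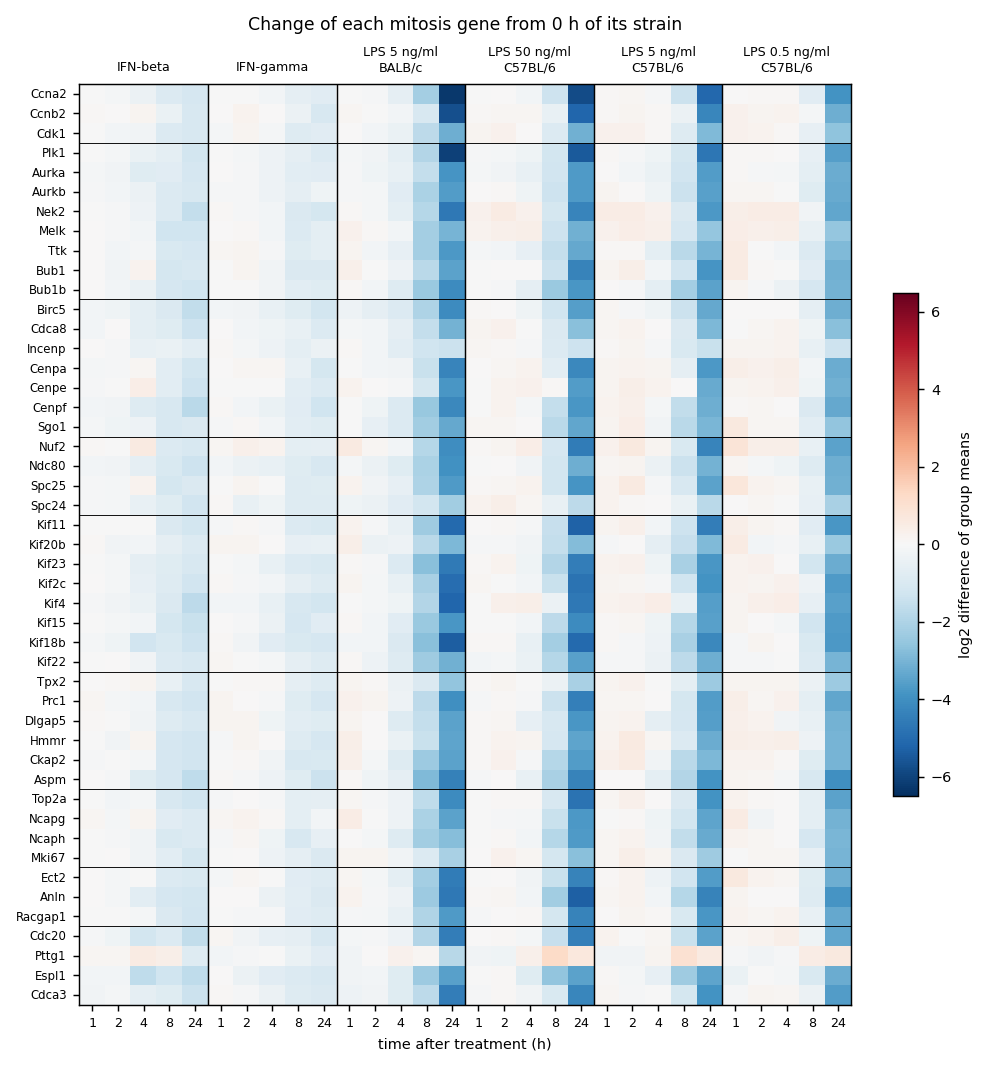
Log2 difference from 0 h of the same strain for each of the 47 mitosis genes (one per line, grouped by role between horizontal lines) at 1, 2, 4, 8 and 24 h of each course; blue is lower and red higher than 0 h. The 24 h columns of the 4 LPS courses are dark in nearly every line, down to -6.30 for Ccna2 in BALB/c, the interferon columns stay pale, and Pttg1 is red at 8 and 24 h in the C57BL/6 courses.

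All 3 mitotic entry genes fell under LPS in BALB/c, with a median of -5.73 at 24 h, but not in step. Cyclin A2 (Ccna2), which drives S phase and the entry into mitosis, read 11.71 and 11.68 at 0 h, 9.48 and 9.53 at 8 h, and 5.55 and 5.24 at 24 h. Cyclin B2 (Ccnb2) read 11.57 and 11.60 at 0 h and still 10.60 and 10.53 at 8 h, a fall of 1.02 ± 0.25 (SE, adjusted p = 0.0011), before 6.00 and 5.72 at 24 h. Cdk1, the kinase both cyclins activate, read 11.10 and 10.92, then 9.26 and 9.37, then 7.76 and 7.95. Its fall at 24 h was 3.16 ± 0.13 (SE), or 8.93-fold, and the arrays of the 3 times did not overlap for any of the 3 genes.

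All 8 mitotic kinases fell at both 8 h (median -1.97) and 24 h (median -3.79). Plk1, the Polo kinase of centrosomes and cytokinesis, read 10.82 and 10.72 at 0 h, 8.92 and 8.84 at 8 h, and 4.70 and 4.72 at 24 h. The Aurora kinase of the chromosomal passenger complex, Aurkb, went from 11.30 and 11.32 through 9.22 and 9.32 to 7.68 and 7.63. The checkpoint kinase Bub1 went from 10.03 and 9.89 through 8.26 and 8.18 to 6.03 and 6.94. Each of these 3 genes was lower at 8 h than at 0 h and lower at 24 h than at 8 h on both arrays; the 24 h arrays of Bub1 lay further apart than those of the other two. Melk, a kinase of dividing cells, had reached 73.1% of its 24 h log2 change by 8 h, against 31.2% for Plk1.

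The 7 passenger and centromere genes fell at 8 h (median -1.56) and 24 h (median -3.77). Survivin (Birc5), which places Aurora B on chromosomes, read 8.51 and 8.50 at 0 h, 6.46 and 6.55 at 8 h, and 4.53 and 4.33 at 24 h. Cenpe, the motor that moves chromosomes to the spindle equator, read 9.15 and 9.13, then 7.97 and 8.05, then 5.15 and 5.60. Incenp, the scaffold of the same passenger complex as Birc5 and Aurkb, read 9.63 and 9.64, then 8.40 and 8.32, then 8.26 and 8.21. Unlike those of Birc5 and Cenpe, the 8 and 24 h arrays of Incenp lay close together: 91.2% of its 24 h log2 change was present at 8 h. All 4 genes of the Ndc80 complex, which ties microtubules to kinetochores, also fell at both times; Ndc80 itself went from 8.28 and 8.45 through 6.16 and 6.42 to 4.44 and 4.37. Spc24 had the smallest fall of the 4 at 24 h, by 2.28 ± 0.18 (SE, adjusted p = 9.57e-14).

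The 8 kinesins had the lowest median of the roles with at least 4 genes, -2.33 at 8 h and -4.78 at 24 h. Kif11, the motor that pushes spindle poles apart, read 10.27 and 10.31 at 0 h, 7.90 and 8.00 at 8 h, and 5.43 and 5.04 at 24 h. Kif22, which pushes chromosome arms, read 8.87 and 8.97, then 6.67 and 6.52, then 5.92 and 5.66. The 2 motors differ in course: Kif22 had 74.4% of its 24 h log2 change by 8 h. Kif11 and Kif18b each have a second, dimmer probe set, which fell less at 24 h than the brightest: -1.96 against -5.05 for Kif11, and -1.13 against -5.38 for Kif18b. Of the other 2 genes with more than 1 probe set, the dimmer probe sets of Prc1 (-0.22) and Top2a (-0.27 and -0.30) were at or under 3.68 already at 0 h, under the dim level.

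Of the 6 genes of spindle assembly and poles, 5 fell at 8 h and all at 24 h (median -3.48). Aspm, which focuses spindle poles, read 8.69 and 8.54 at 0 h and had the deepest 8 h fall of the 47, to 5.65 and 5.81, before 4.38 and 4.03 at 24 h. Tpx2, which activates Aurora A on the spindle, read 10.01 and 9.99, then 8.97 and 9.14, then 7.33 and 7.52. Its 8 h arrays lay below both 0 h arrays, but the change of -0.94 missed the size asked of a call. Among the 4 genes of chromosome structure, the topoisomerase Top2a went from 10.15 and 10.16 through 8.40 and 8.58 to 5.84 and 6.30. Mki67, the source of the Ki-67 proliferation antigen, went from 10.98 and 11.02 through 10.05 and 10.15 to 8.85 and 8.90. Its fall, 4.36-fold at 24 h, was among the smallest of the 47.

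The 3 cytokinesis genes fell at 8 h (median -2.19) and 24 h (median -4.56). Anillin (Anln), which organises the cleavage ring, read 10.14 and 10.04 at 0 h, 7.64 and 7.84 at 8 h, and 5.46 and 5.39 at 24 h. Of the 4 anaphase and exit genes, Cdc20, Espl1 and Cdca3 fell at both times. Cdc20 read 10.18 and 10.10, then 8.08 and 8.43, then 5.70 and 5.63. For Anln and Cdc20 alike each later pair of arrays lay wholly below the earlier one. Securin (Pttg1), the inhibitor of separase, did not: it read 8.26 and 8.30 at 0 h, 8.41 on both arrays at 8 h, and 6.48 and 6.42 at 24 h, so that its whole fall of 1.83 ± 0.11 (SE, adjusted p = 8.69e-17) came after 8 h.

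Under interferon-beta 14 of the 47 genes were called lower at 8 h, where 1.62% of all genes were called lower, and 39 at 24 h, where 1.02% were. The median change was -0.90 at 8 h and -1.20 at 24 h, and at 24 h the genes lay between -1.74 (Cenpf) and -0.70 (Incenp), a far narrower band than under LPS. The 3 lowest at 8 h were Melk (-1.30), Espl1 (-1.28) and Spc25 (-1.16), and at 24 h Cenpf (-1.74), Kif4 (-1.71) and Aspm (-1.64). All 8 mitotic kinases, all 3 entry genes and all 6 spindle genes were called at 24 h; the 8 not called were Ect2, Sgo1, Spc25, Ncaph, Ncapg, Kif20b, Pttg1 and Incenp, each with a change between -0.99 and -0.70. Birc5 read 7.49 and 7.68 at 8 h and 7.02 and 6.79 at 24 h, against 8.51 and 8.50 at 0 h. Plk1 read 10.12 and 10.16 at 8 h and 9.55 and 9.60 at 24 h, against 10.82 and 10.72. Both genes moved down in steps of similar size, and most of the fall was in place by 8 h: over the 39 genes the median share of the 24 h log2 change present at 8 h was 75.5%. From 8 to 24 h only Pttg1 was called lower (-1.25), where 1.51% of all genes were, while 19 were lower at an unadjusted p under 0.05. The count at 24 h ran from 27 to 44 when single arrays were left out, and that at 8 h was 44 with no minimum change, and 8 with each array centred on its median.

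Under interferon-gamma 4 of the 47 genes were called lower at 8 h (Kif15 -1.08, Ckap2 -1.06, Kif4 -1.03 and Ncaph -1.03), where 0.988% of all genes were called lower, and 13 at 24 h, where 1.2% were. The median change was -0.75 at 8 h and -0.86 at 24 h. At 24 h the lowest were Aspm (-1.40), Cenpf (-1.31) and Birc5 (-1.20), and the highest were Ncapg (-0.16), Aurkb (-0.30) and Incenp (-0.38). All 47 genes had a lower mean than at 0 h at 8 h and at 24 h, where the median changes over all genes were -0.04 and -0.03. The small counts come from changes under 1: with no minimum change 38 and 41 genes were called. The shares of all genes by that rule were not counted. With each array centred on its median the counts were 1 and 7. Aspm read 7.92 and 7.72 at 8 h and 7.22 on both arrays at 24 h, against 8.69 and 8.54 at 0 h. Aurkb read 10.74 and 10.66 at 8 h and 10.99 and 11.02 at 24 h, against 11.30 and 11.32. The first gene was lower at 24 h than at 8 h and the second was higher, although from 8 to 24 h none of the 47 was called lower, where 0.367% of all genes were, and 9 were lower and 3 higher at an unadjusted p under 0.05.

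The stimuli were also set against one another at matched times in BALB/c, in which the 3 courses share only the 0 h wells that these tests do not use. Between the interferons no gene of the 47 was called lower under interferon-beta at 8 h, where 0.574% of all genes were and 5 of the 47 were lower at an unadjusted p under 0.05, or at 24 h, where 1.03% of all genes were. At 24 h all 47 had a lower mean under interferon-beta (median -0.35) and 25 were lower at an unadjusted p under 0.05. The largest differences were those of Aurkb (-0.76 ± 0.13), Top2a (-0.74 ± 0.25) and Kif15 (-0.73 ± 0.19; all SE). Aurkb read 10.20 and 10.30 at 24 h of interferon-beta and 10.99 and 11.02 at 24 h of interferon-gamma. Those arrays did not overlap, yet the size stayed under the one asked of a call; with no minimum change 10 genes were called, and without the 11 arrays 3.

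Both interferons were set against the same LPS 5 ng/ml wells. There 23 genes were higher under interferon-beta at 8 h, where 3.97% of all genes were called higher, and 45 at 24 h, where 4.51% were. Under interferon-gamma 30 were higher than under LPS at 8 h, where 4.44% were, and all 47 at 24 h, where 4.27% were. The median differences at 24 h were 2.59 and 2.93. The largest at 24 h were those of Ccna2 (5.19 and 5.55), Plk1 (4.87 and 5.16) and Ccnb2 (both 4.69), and the smallest those of Incenp (0.70 and 1.02), Pttg1 (0.97 and 1.11) and Mki67 (1.01 and 1.18). At 8 h the largest were Kif23 (1.90), Aspm (1.82) and Kif18b (1.71) for interferon-beta and Aspm (2.10), Kif23 (1.81) and Kif22 (1.76) for interferon-gamma, while Mki67 (0.21 and 0.30) was among the smallest. With no minimum change the first of these counts was 39. Mki67 at 8 h read 10.31 on both arrays of interferon-beta, 10.41 and 10.38 for interferon-gamma, and 10.05 and 10.15 for LPS, close together but without overlap between an interferon and LPS.

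**Figure D3:**
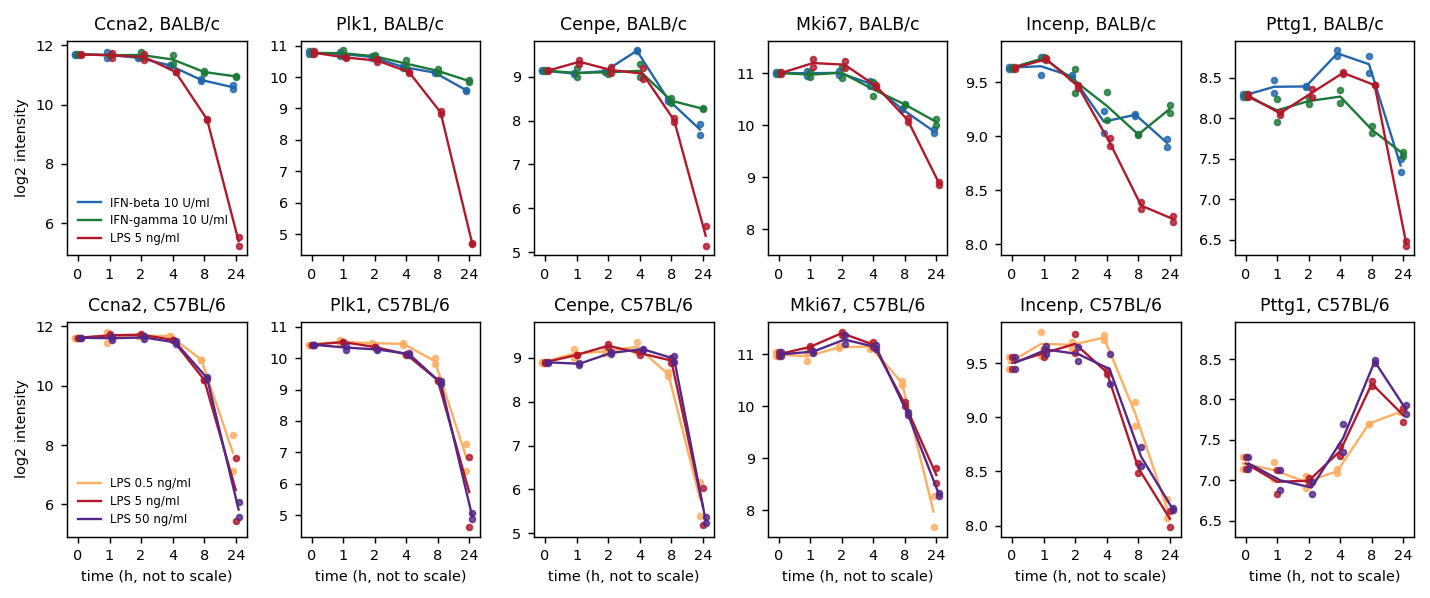
Log2 intensity on each array (points) and group mean (lines) of Ccna2, Plk1, Cenpe, Mki67, Incenp and Pttg1 against hours after treatment (axis not to scale), in BALB/c (top) and C57BL/6 (bottom); each gene has its own vertical scale. Ccna2 and Plk1 drop steeply between 8 and 24 h of LPS, Incenp is nearly flat after 8 h in BALB/c, and Pttg1 falls in BALB/c but lies above its 0 h level in C57BL/6 at 8 and 24 h.

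In C57BL/6, 46 of the 47 genes were lower at 24 h of each LPS dose, and at the lowest dose less of that fall was present at 8 h. The 3 doses share the 0 h wells, so their changes are not independent of one another. At 8 h, 36 genes were lower at 50 ng/ml (background 5.9%), 33 at 5 ng/ml (5.77%) and 5 at 0.5 ng/ml (2.31%), with median changes of -1.35, -1.25 and -0.57. At 24 h each dose had 46 (backgrounds 4.99%, 4.5% and 3.78%) with medians of -3.78, -3.47 and -3.15, and the gene not called lower was Pttg1 each time. Over the genes that fell, the median share of the 24 h log2 change present at 8 h was 33.7%, 34.5% and 19.2%, and from 8 to 24 h 44, 45 and 45 genes were called lower (backgrounds 3.03%, 2.78% and 1.73%). With changes counted from 1 h in place of 0 h, the 8 h count at 0.5 ng/ml was 16. Replicate 2 at that 1 h stands apart and is in the set of 11. The 8 h count was 28 with no minimum change and 2 with each array centred.

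At 8 h the 3 lowest genes were Espl1 (-2.58), Bub1b (-2.39) and Anln (-2.24) at 50 ng/ml, Espl1 (-2.31), Bub1b (-2.22) and Kif23 (-2.12) at 5 ng/ml, and Kif15 (-1.23), Kif23 (-1.20) and Bub1b (-1.10) at 0.5 ng/ml. Espl1 read 8.59 and 8.55 at 0 h, 6.05 and 5.93 at 8 h of 50 ng/ml, 6.22 and 6.29 at 5 ng/ml, and 7.67 and 7.49 at 0.5 ng/ml. Anln read 10.04 and 9.95, then 7.67 and 7.85, 8.12 and 8.17, and 9.18 and 9.10. In both genes, named as among the lowest at 50 ng/ml, the arrays of the 3 doses did not overlap and followed the dose. Between 50 and 5 ng/ml at 8 h, 22 of the 47 genes had both arrays lower and 10 had both higher. At an unadjusted p under 0.05, 0 were lower and 1 was higher, so a step between these doses is not resolved. The share of all genes without overlap was not counted. Other genes were not called at 8 h at any dose. Cenpe, at 8.89 and 8.91 at 0 h, read 8.92 and 9.05 at 50 ng/ml, 8.89 and 8.99 at 5 ng/ml, and 8.59 and 8.67 at 0.5 ng/ml. Ccnb2 (-0.47, -0.39 and -0.11 at 50, 5 and 0.5 ng/ml), Cenpa and Kif4 (-0.39, -0.47 and -0.52) were not called at 8 h at any dose either. All 4 had fallen at 24 h at every dose.

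At 24 h the lowest genes were Ccna2 (-5.79), Plk1 (-5.45) and Anln (-5.30) at 50 ng/ml, Ccna2 (-5.13), Plk1 (-4.69) and Kif11 (-4.48) at 5 ng/ml, and Aspm (-3.96), Ccna2 (-3.87) and Anln (-3.82) at 0.5 ng/ml. The smallest falls were those of Incenp (-1.35, -1.44 and -1.35), Spc24 (-1.71, -1.73 and -2.09) and Tpx2 (-2.09, -2.36 and -2.38), except that Mki67 (-2.32) fell less than Tpx2 at 5 ng/ml. Ccna2 read 11.61 and 11.62 at 0 h, 6.07 and 5.58 at 24 h of 50 ng/ml, 5.43 and 7.55 at 5 ng/ml, and 8.34 and 7.14 at 0.5 ng/ml. Plk1 read 10.41 and 10.43 at 0 h, then 5.05 and 4.89, 4.63 and 6.84, and 7.26 and 6.40. For both genes the 2 arrays at 5 ng/ml lay on either side of both arrays at 50 ng/ml, the higher being the replicate that stands apart. Mki67 read 11.04 and 10.96 at 0 h, 8.27 and 8.32 at 50 ng/ml, 8.53 and 8.82 at 5 ng/ml, and 8.27 and 7.68 at 0.5 ng/ml, with no order by dose.

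Tested directly, 50 against 0.5 ng/ml gave 10 genes lower at 8 h (background 1.13%) and 15 at 24 h (0.574%). At 8 h the lowest were Espl1 (-1.59 ± 0.24), Anln (-1.38 ± 0.24) and Bub1b (-1.29 ± 0.13; all SE), and Cdc20, the activator of the anaphase-promoting complex, was lower by 1.23 (-1.23 ± 0.20, SE, adjusted p = 1.77e-05). Cdc20 read 8.03 and 7.99 at 8 h of 50 ng/ml, 8.03 and 8.09 at 5 ng/ml and 9.28 and 9.20 at 0.5 ng/ml, against 9.44 and 9.56 at 0 h, so that only the lowest dose was near the untreated level. At 24 h the lowest were Ccnb2 (adjusted p = 6.52e-07), Ccna2 (-1.92) and Plk1 (-1.86); the count was 4 without replicate 1 at 0.5 ng/ml and also with only the arrays compared in the fit. Between 5 and 0.5 ng/ml 6 genes were lower at 8 h (0.659%) and 3 at 24 h (0.202%), Ccna2, Plk1 and Ccnb2, whose arrays overlapped between these doses. Between 50 and 5 ng/ml none was called at 8 h, where 0.0531% of all genes were called lower and none of the 47 was lower at an unadjusted p under 0.05, and Kif4 alone at 24 h (0.0372%), with -1.05. Kif4 was under the dim level at 50 ng/ml, and with that level as a floor, a setting chosen after seeing the data, the difference is -0.72; in the same way those of Kif4 (-0.77), Kif2c (-0.55) and Nuf2 (-0.77), among the 15 at 50 against 0.5 ng/ml, are under 1. The 24 h counts that involve 5 ng/ml rest on the array that stands apart: without it 13 genes were lower at 5 than at 0.5 ng/ml and none lower at 50 than at 5 ng/ml, and without its replicate the counts were 0 and 17. At 1, 2 and 4 h no gene was called lower between doses, and at most 10 were lower at an unadjusted p under 0.05 in any of these tests. Of all genes, none was called lower at 50 against 5 ng/ml at these times, 0.0797%, 0.00531% and 0.154% were at 50 against 0.5 ng/ml, and 0.0956%, 0.00531% and 0.117% at 5 against 0.5 ng/ml.

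**Figure D4:**
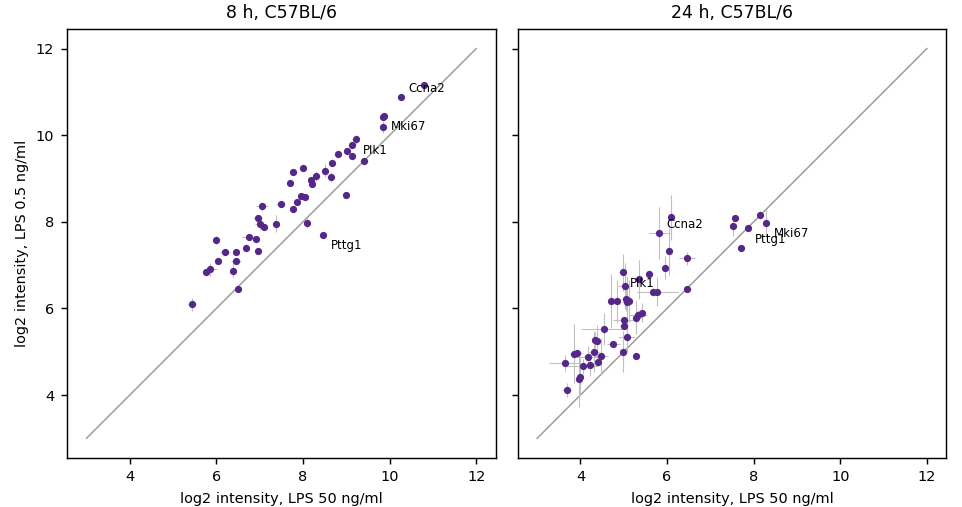
Mean log2 intensity of each of the 47 mitosis genes in C57BL/6 at LPS 0.5 ng/ml (vertical) against LPS 50 ng/ml (horizontal) at 8 h (left) and 24 h (right); grey bars span the 2 arrays and the grey line marks equal levels. At 8 h most genes lie above the line with short bars (median difference -0.66 for 50 minus 0.5 ng/ml) and Pttg1 lies below it, and at 24 h the bars at 0.5 ng/ml are long.

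Of the 47 genes, 1 was called different between the strains before treatment, and 3 were called for a lower change in BALB/c at 8 h of LPS 5 ng/ml. At 0 h the median of the 47 genes was 0.24 higher in BALB/c, with 1 gene called, Pttg1, where 1.1% of all genes were called higher in BALB/c. The median difference over all genes was 0.02. With no minimum change 6 were higher in BALB/c and 0 lower: Pttg1, Nek2 (0.80), Cdc20 (0.64), Ttk (0.62), Birc5 (0.54) and Cdca8 (0.43). The share of all genes by that rule was not counted. Nothing states that the cells of a strain came from more than 1 preparation. Strain therefore cannot be told apart from preparation, here or in the strain comparisons below. The fall itself was compared as the change in BALB/c minus the change in C57BL/6. At 8 h its median was -0.64, against -0.03 over all genes, and 46 of the 47 genes had a lower value in BALB/c. All 47 values use the same 0 h wells, and the share of all genes with a lower value was not counted. Of the 47, 3 were called (background 0.739%), the kinesin Kif4 (-1.44 ± 0.29), Cenpe (-1.17 ± 0.25) and Melk (-1.14 ± 0.21, all SE). Kif4 read 8.85 and 8.82 at 0 h and 6.89 and 6.97 at 8 h in BALB/c, but 8.46 and 8.53 and then 7.99 and 8.06 in C57BL/6. Cenpe, as given above, had fallen in BALB/c and was not called in C57BL/6. The levels themselves differed less at 8 h, with a median of -0.37 for BALB/c minus C57BL/6. Each of the 3 calls held when any 1 array of these groups was left out, with between 3 and 4 genes called; the count was 12 with no minimum change and 7 with changes counted from 1 h. At 1, 2 and 4 h no gene was called in this comparison, where 0.0478%, 0.0691% and 0.271% of all genes were called lower. By an unadjusted p under 0.05, 2, 10 and 18 of the 47 were lower in BALB/c, and the shares of all genes by that rule were not counted.

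At 24 h 8 genes had a lower change in BALB/c (background 0.733%): Pttg1 (-2.42), Kif4 (-1.59), Ccnb2 (-1.49), Plk1 (-1.37), Kif18b (-1.17), Kif2c (-1.08), Cenpf (-1.03) and Cdc20 (-1.02). For Pttg1 a fall in BALB/c is set against a level above 0 h in C57BL/6, and the others fell in both strains. Kif4 and Kif2c were under the dim level in BALB/c at that time, so their sizes are not exact; with that level as a floor they are -1.06 and -0.85. Without the array of C57BL/6 that stands apart only Pttg1 and Kif4 stayed called lower, Bub1 was called the other way (1.19), and the median went from -0.48 to -0.07; without its replicate 16 genes were called. The count lay between 4 and 5 without replicate 2 of the BALB/c 0 h wells, replicate 1 of the C57BL/6 0 h wells or either BALB/c array at 24 h, and was 2 with only the arrays compared and 4 with changes counted from 1 h. The levels reached at 24 h show the same spread. Kif4 read 3.85 and 3.48 in BALB/c and 4.61 and 5.22 in C57BL/6. Top2a read 5.84 and 6.30 in BALB/c, between the arrays of C57BL/6 at 5.47 and 7.09.

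Pttg1, the separase inhibitor, lay on opposite sides of its 0 h level in the 2 strains at 24 h of LPS. In BALB/c it read 8.26 and 8.30 at 0 h, and in C57BL/6 7.28 and 7.13, a difference of 1.07 ± 0.11 (SE, adjusted p = 1.76e-09). The arrays did not overlap, although the difference is 0.996, just short of a call, without replicate 2 of the C57BL/6 wells. At 8 h of LPS, Pttg1 in C57BL/6 read 8.49 and 8.46 at 50 ng/ml, 8.16 and 8.23 at 5 ng/ml, and 7.70 on both arrays at 0.5 ng/ml. Each dose lay above the 0 h arrays and the 3 doses did not overlap; the rise of 1.26 ± 0.11 (SE, adjusted p = 4.11e-12) at 50 ng/ml was called, where 4.31% of all genes rose, and those of 5 ng/ml (0.99) and 0.5 ng/ml (0.49) were under 1. At 24 h it read 7.82 and 7.93, 7.72 and 7.89, and 7.85 on both arrays, with changes of 0.66, 0.59 and 0.64 and adjusted p of at most 3.9e-05 by limma. These lie above 0 h, overlap between doses and were not called. At that time the same LPS dose had brought Pttg1 in BALB/c to 6.48 and 6.42, so that BALB/c, the higher strain at 0 h, was the lower by 1.35 ± 0.11 (SE, adjusted p = 6.46e-12). The difference of the 2 changes, -2.42 ± 0.16 (SE, adjusted p = 6.06e-14), was the largest of the 47 genes at 24 h, and stayed past the threshold under every alternative run and without either array of C57BL/6 at 24 h. Interferon-beta had Pttg1 at 8.84 and 8.77 at 4 h, above 0 h by 0.53 (adjusted p = 0.000333), before 7.34 and 7.50 at 24 h.

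Genes differed in how far their fall had gone at 8 h. In each LPS course the gene with the smallest share of its 24 h log2 change at 8 h was Ccnb2 or Cenpe, with Pttg1 aside. By 8 h Ccnb2 had 17.8% of its 24 h log2 change in BALB/c and 9%, 9.1% and 3.4% in C57BL/6 at 50, 5 and 0.5 ng/ml, and Cenpe 30%, -2.3%, -1.2% and 8.7%. Incenp had 91.2%, 64.2%, 67.5% and 35%. The lowest levels were near background. At 24 h of LPS 3 genes were under the dim level in BALB/c (Ttk, Kif2c and Kif4), and 8, 2 and 1 in C57BL/6 at 50, 5 and 0.5 ng/ml. For these genes the size of the fall is a lower bound. At 8 h, and in every interferon group, none was.

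Other genes of mitosis, taken from lists chosen with earlier results of these data known, were read in the same fit. At 24 h of LPS in BALB/c, all 6 other condensin subunits were called lower (Ncapd2 -4.32, Ncapg2 -3.30), as were 8 of 10 constitutive centromere genes (Cenpm -4.66, Cenpn -3.80) and 11 of 15 outer kinetochore and checkpoint genes (Knl1 -4.51, Kntc1 -3.86). Of 10 genes that control Cdk1, 9 were lower, led by the phosphatase Cdc25b (-3.39) and Gtse1 (-3.19). Fewer were lower in 2 other lists. Of 13 cohesin genes 4 were lower, led by the S phase acetyltransferase Esco2 (-4.26) and by Cdca5 (-3.10), and of 14 genes of the anaphase-promoting complex and its partners 2 were lower, its inhibitor Fbxo5 (-3.70) and Ube2s (-1.07), and 1 higher, Cdc26 (1.06). The background at that time was 5.54% lower and 4.9% higher.

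Of 16 regulators of mitotic transcription 7 were lower at both 8 and 24 h of LPS in BALB/c, among them Mybl2 (-2.91 and -4.25), a subunit of the activating MuvB complex, and the repressor E2f7 (-3.30 and -3.69). Unlike the mitosis genes, E2f2 (-3.32 and -2.83) and the anaphase inhibitor Fbxo5 (-3.80 and -3.70), a known E2F target, had at 8 h values at or below those at 24 h, a difference that was not tested. Of 8 Cdk inhibitors 3 were lower at 24 h, with Cdkn3 (-3.51) and Cdkn2c (-3.32) the lowest, and Cdkn2b, which blocks Cdk4 and Cdk6, was higher at 8 h (1.73) and 24 h (1.75). Cdkn2b was also higher at 24 h in C57BL/6 at 50, 5 and 0.5 ng/ml (1.32, 1.55 and 1.80). Cdkn1a, the p21 inhibitor, was not called at either time (0.79 at 8 h and 0.22 at 24 h in BALB/c). Under interferon-beta Cdkn1c, the p57 inhibitor, was higher at 24 h (2.05 ± 0.16, SE, adjusted p = 1.26e-11).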

How the data were processed

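RNA of 64 wells was hybridised to 1 Affymetrix array each, and what the authors deposited is an intensity per probe set, not on a log scale; the submitters' processing notes name Affymetrix Expression Console 1.1, and background correction, normalisation and summarisation are not given in the sources used here. That scale was read from the values, whose array medians run from 25.6 to 29.0. Log2 of these intensities was used as it stood, without filtering. Of 35556 probe sets 21218 carry 1 symbol, and the one with the highest mean stands for a gene, which left 18820 genes; no coordinates are given for them because the array's build is not stated.

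One mean per group was fitted to all 64 arrays in R 4.3.3 with limma 3.58.1 (32 residual degrees of freedom), with the moderated test for each of 83 contrasts and Benjamini-Hochberg adjustment over all 18820 genes. On simulated data for LPS in BALB/c at 24 h (18820 genes), 49 of 50 genes lowered by 1.5, 49 of 50 lowered by 2 and 50 of 50 lowered by 3 were called, with 1 false call. The simulated noise was normal and independent between arrays, with no set of 11, no array that stands apart and no floor. It therefore checks the fit alone and not how these arrays behave. The fit pools the spread of all groups, so a group with unlike wells is judged by the common spread. The number of arrays limits the precision. The 11 arrays were found by the first component of differences between replicates over probe sets with no gene (11.4% of their variance); no label gives a batch. An array stands apart where 10 or more genes differed from its replicate by over 1.5. The members, the lists and the rule for named genes (1 or 2 genes per role, and the 3 largest and smallest changes per comparison) were chosen with earlier results of these data known; genes named in the timing, dose and strain paragraphs beyond that rule were chosen after their values were seen. Replicate numbers were not treated as pairs: over 496 pairs of groups the correlation of same-numbered deviations had a median of 0.0046 and ran from -0.47 to 0.55. It was over 0.1 in 46 pairs, so this median cannot exclude pairing among some groups. In most of the 9 groups split by the set of 11, the array in that set was replicate 2. Untreated wells are labelled for 0 h alone, so change with time in culture cannot be told apart from the stimulus in the changes from 0 h. Promoter windows for Aurkb, Ccna2, Dlgap5, Incenp, Spc24 and Tpx2 were not used here.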

Additional observations from a re-analysis of the deposited data

Results flagged for a closer look

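The changes of 10 genes under LPS 5 ng/ml differed between the strains by the direct test of the difference (change in BALB/c minus change in C57BL/6). At 8 h these were Kif4 (-1.44, adjusted p = 0.00114), Cenpe (-1.17, adjusted p = 0.00171) and Melk (-1.14, adjusted p = 0.000299), each with the lower change in BALB/c. At 24 h they were Pttg1 (-2.42, adjusted p = 6.06e-14), Kif4 (-1.59, adjusted p = 0.000398), Ccnb2 (-1.49, adjusted p = 0.00839), Plk1 (-1.37, adjusted p = 0.0468), Kif18b (-1.17, adjusted p = 0.00581), Kif2c (-1.08, adjusted p = 0.00664), Cenpf (-1.03, adjusted p = 0.00269) and Cdc20 (-1.02, adjusted p = 0.0347), all by limma. Without replicate 2 of the C57BL/6 group at 24 h of that dose, Pttg1 (-2.34) and Kif4 (-1.28) were still called, and Ccnb2 (-0.67), Plk1 (-0.27), Kif18b (-0.84), Kif2c (-0.79), Cenpf (-0.74) and Cdc20 (-0.72) were not. Without replicate 1 of that group all 8 were called, Plk1 at -2.48. The 8 h differences do not involve that group. With group means under the dim level raised to it, the 24 h differences of Kif4 and Kif2c are -1.06 and -0.85.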

How the results depend on the processing

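All 33 counts at 0, 8 and 24 h stayed within 1.5 times of their value with dim genes left out (47 members remained), with probe sets of a gene averaged, with limma's trend and robust settings and, beyond interferon-beta at 4 h (1 gene against 3), with the set of 11 arrays as a covariate. The replicate block gave 14 genes lower at 8 h of interferon-beta and changed no call beyond that limit. Centring each array on its median, which shifted changes by -0.14 to 0.20, gave 8 genes at 8 h of interferon-beta, 1 and 7 at 8 and 24 h of interferon-gamma, 2 at 8 h of LPS 0.5 ng/ml and 0 for 50 against 5 ng/ml at 24 h. Quantile normalisation gave 2 for 50 against 5 ng/ml at 24 h, and 5 and 2 at 8 h for 50 and 5 against 0.5 ng/ml. With only the arrays compared, the 24 h counts were 0 for 50 against 5 ng/ml, 4 for 50 against 0.5, 0 for 5 against 0.5 and 2 for the strain difference of the change. With no minimum change the counts lower were 16 at 4 h and 44 at 8 h of interferon-beta, 38 and 41 at 8 and 24 h of interferon-gamma, 28 at 8 h of LPS 0.5 ng/ml, 12 and 2 from 8 to 24 h of interferon-beta and interferon-gamma, 1 and 10 at 8 and 24 h between the interferons, 4 for 50 against 5 ng/ml at 24 h, 31 and 26 at 8 and 24 h for 50 against 0.5, 27 at 8 h for 5 against 0.5, and 12 for the strain difference at 8 h; the counts higher were 39 for interferon-beta against LPS at 8 h and 6 for BALB/c at 0 h. Without the 11 arrays 3 genes were lower between the interferons at 24 h and 6 for 5 against 0.5 ng/ml at 24 h. Without the arrays that stand apart the 24 h counts were 0 for 50 against 5 ng/ml, 13 for 5 against 0.5 and 2 for the strain difference. Counted from 1 h, 16 genes were lower at 8 h of LPS 0.5 ng/ml, and the strain difference held 7 at 8 h and 4 at 24 h. Leaving out single arrays gave 0 to 1 gene for the strains at 0 h, 2 to 16 for the strain difference at 24 h, 0 to 3 between the interferons at 24 h, and at 24 h between doses 0 to 17 (50 against 5), 4 to 20 (50 against 0.5) and 0 to 13 (5 against 0.5). The lowest value for 50 against 5 ng/ml also came without replicate 2 of 50 ng/ml, and that between the interferons changed without replicate 2 of interferon-beta at 24 h. One difference changed sign: Plk1 at 5 against 0.5 ng/ml at 24 h was 0.0085 without replicate 1 of 5 ng/ml and -2.20 without replicate 2. Beyond the alternatives' own construction, the cause was not tested. With 2 wells a group and levels near background at 24 h of LPS, falls past the dim level have no measured size, and 24 h counts that involve LPS 5 ng/ml in C57BL/6 change with the array left out.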
